A study of Mus musculus with 2 samples.

Results

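The genes described here encode the glutathione, peroxiredoxin and thioredoxin defences against oxidants, together with the superoxide dismutases, catalase, Nqo1 and Osgin1. They were chosen by gene symbol alone, as the glutathione S-transferases (Gst), glutathione peroxidases (Gpx), peroxiredoxins (Prdx), thioredoxin-named genes (Txn) and superoxide dismutases (Sod), plus Gclc, Gclm, Gss, Gsr, Srxn1, Nqo1, Cat, Glrx and Osgin1. The rule found 62 genes, read by 117 probe sets, among 18194 genes with a single symbol on the array. Ggt1 also stood in the rule and was not analysed here, and 6 probe sets whose annotation gives several genes, 1 of them a gene of the rule, were left out. Expression was read in injured kidney of male C57BL/6 mice 8 weeks of age. The EST KO AKI sample pooled 124 mg of tissue from 6 mice lacking estrogen sulfotransferase (EST, gene Sult1e1), the enzyme that inactivates estrogens by adding sulfate. The WT AKI sample pooled 180 mg from 3 wild-type mice, and each pool was hybridised to 1 Affymetrix array. AKI stands for acute kidney injury: mice of both genotypes had 30 min of warm bilateral renal ischemia with reperfusion, and kidneys were taken 24 h later. Neither pool was uninjured, and how the Sult1e1 gene was disrupted is not given in the labels.

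Values are the deposited intensities on a linear scale. With 1 array per genotype, the spread between mice is unknown and no test between genotypes was possible. Background was set from 129 probe sets of gene families silent in kidney, such as olfactory receptors, at their 95th percentile, and came to 638.3 in EST KO kidney and 676.1 in WT kidney. A gene was read at its brightest probe set and counted as measured when that lay above background in at least 1 pool. Where 1 pool lay below, its value was raised to background, so that the fold is a lower bound, written "at least". Sult1e1 read 17.2 in EST KO kidney and 472.7 in WT kidney, below background in both, so it does not check the genotype label. The treatment protocol calls the EST KO tissue liver where all other labels say kidney. Of 14 hepatocyte markers on the array 4 were measured, and the intensities of the 14 summed to 4792 in EST KO kidney and 6554 in WT kidney. Much of that gap comes from Fgb, at 7.5 in EST KO kidney and 1284 in WT kidney, which also stands among the tubular injury markers below. Albumin (Alb) lay below background at 522.3 in EST KO kidney and 487.9 in WT kidney. Umod, the uromodulin gene of the loop of Henle, read 22735 in EST KO kidney and 25568 in WT kidney.

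Glutathione is a cysteine-containing tripeptide that cells keep at high concentration as a reducing agent, and the proximal tubule both makes it and breaks it down. Glutathione peroxidases use it to reduce hydrogen peroxide and lipid peroxides, S-transferases attach it to reactive compounds, and glutathione reductase recovers the reduced form from NADPH. Peroxiredoxins also reduce peroxides and draw their electrons from thioredoxin, which thioredoxin reductase recharges. Many of these genes are switched on by the transcription factor NRF2 (gene Nfe2l2), which binds antioxidant response elements and is held down by KEAP1 in unstressed cells. Oxidants formed on reperfusion are a well-known part of ischemic kidney injury.

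The antioxidant genes did not move as a block. Of the 62 genes 47 were measured, 42 of them above background in EST KO and WT kidney alike, 3 in EST KO kidney only and 2 in WT kidney only. In EST KO kidney 24 of the 47 were higher and 23 lower than in WT kidney (51.1% and 48.9%), beside 43.6% higher and 54.6% lower among 7480 measured genes. The members' median log2 ratio, EST KO over WT, was 0.003 (between -0.03 and 0.10 under the alternatives), and that of all measured genes was -0.05. At least 2-fold higher were 4 members (8.51%, beside 3.02% of all measured genes): Gstz1, Sod3, Osgin1 and Glrx. At least 2-fold lower were 3 members (6.38%, beside 1.4% of all measured genes): Srxn1, Gclc and Gsta4. At 1.5-fold the counts were 8 higher (17.0%, beside 8.46%) and 6 lower (12.8%, beside 7.43%). Counts this small, from 1 array per genotype, describe these pools only.

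**Figure D1:**
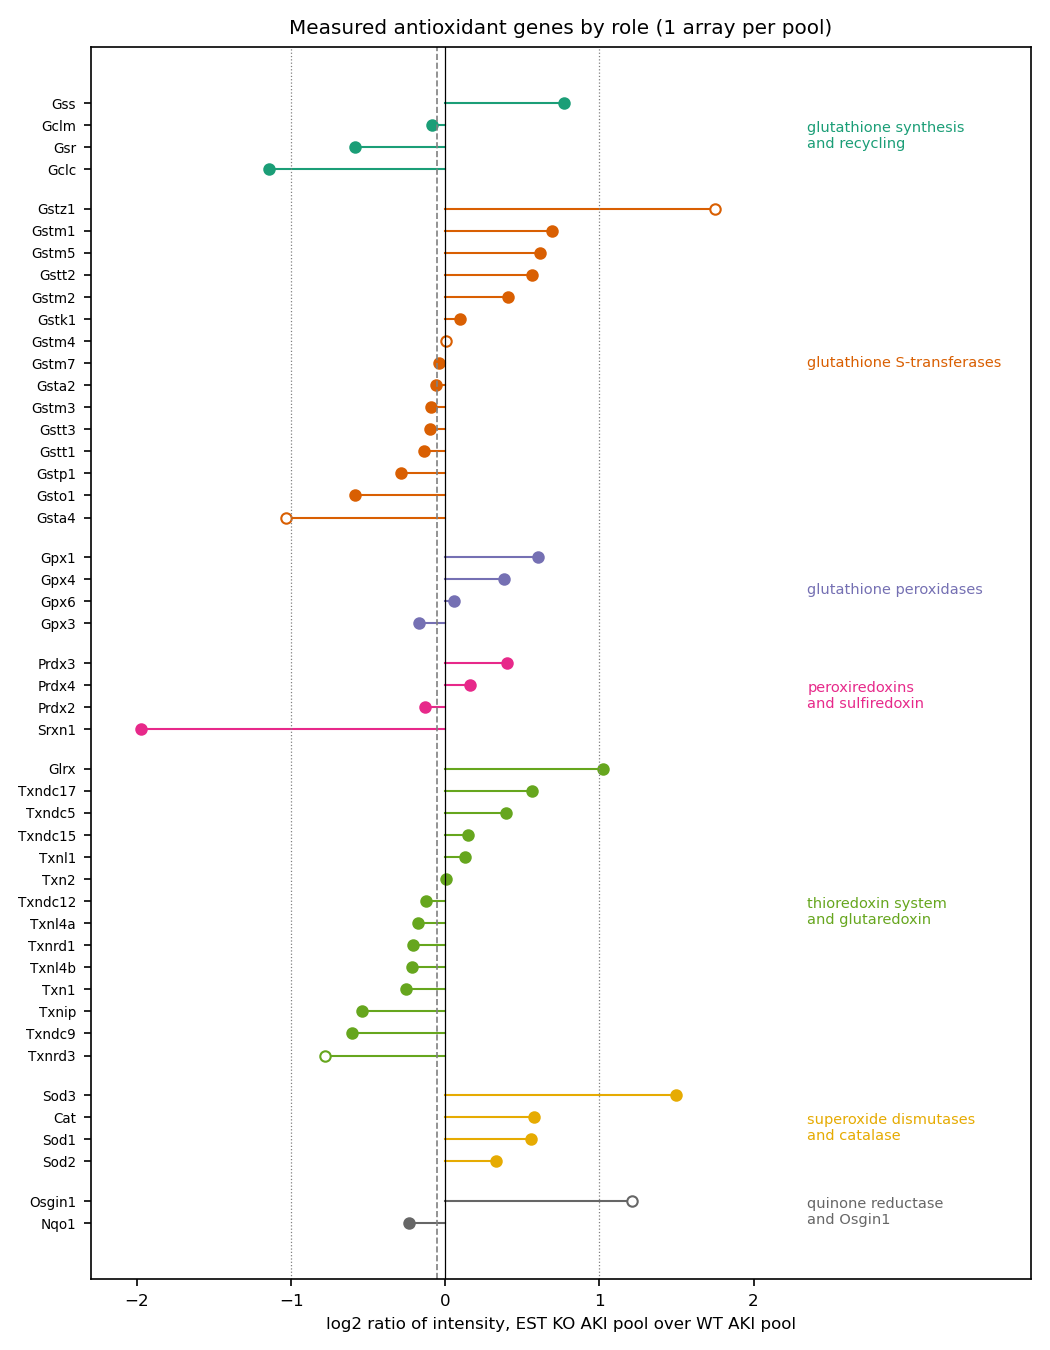
Log2 ratio of intensity (EST KO AKI pool over WT AKI pool, horizontal axis) of the 47 measured genes, grouped and coloured by role. Open circles are lower bounds in size because 1 pool lay below background, dotted lines mark 2-fold, and the dashed line is the median of all 7480 measured genes (-0.05); Srxn1 lies farthest left at -1.97 and Gstz1 farthest right at a bound of 1.75.

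Disagreement between probe sets of 1 gene is the only error these arrays show. Of the members, 21 had at least 2 probe sets that exceeded background in EST KO and in WT kidney. The 2 brightest differed by a median of 0.24 on the log2 scale for these members and by 0.21 over 1663 such genes of the whole array. For 1 gene in 20 of the 1663 they differed by 0.81 or more, a factor of 1.75. This is a gap between 2 ratios from the same arrays, so it does not measure the spread between mice. Of the members at least 1.5-fold apart, Gss, Gstm1, Gstm5, Gpx1, Gsto1 and Txndc9 lay under that factor, as did the bound of Txnrd3. Probe sets pointed in opposite directions for 3 of the 21 members (14.3%), Gclm, Txn2 and Txndc5, and for 33.9% of the 1663 genes.

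**Figure D2:**
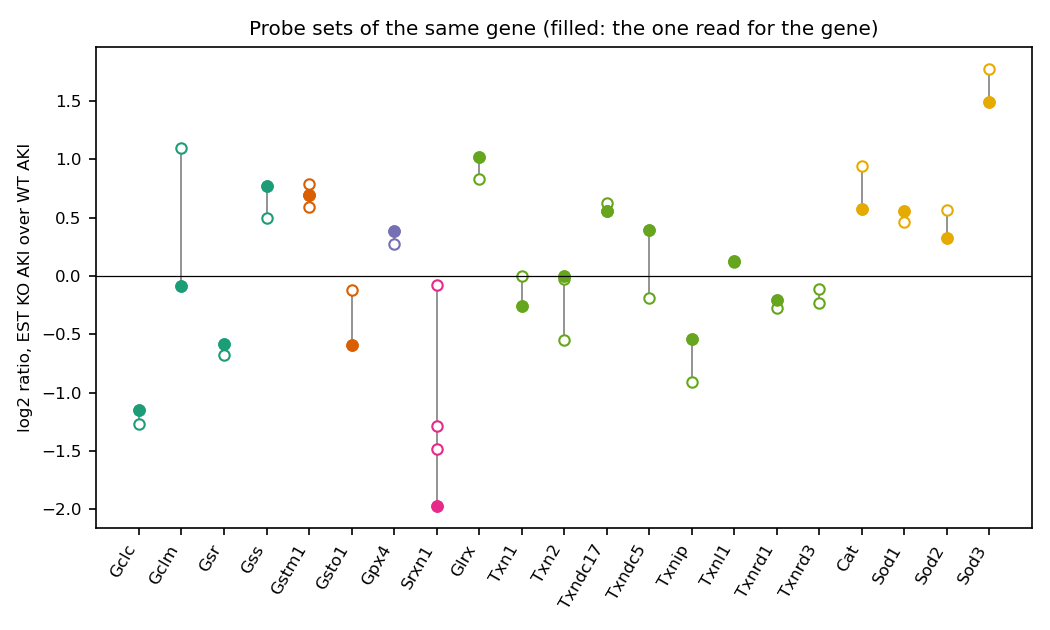
Log2 ratio (EST KO AKI over WT AKI, vertical axis) of each probe set that exceeded background in EST KO and in WT kidney, for the 21 members with at least 2 of them, coloured by role as in the plot of all measured members. Filled circles are the probe set read for the gene; for Txnrd3 that probe set was under background in EST KO kidney and is not drawn. The 2 probe sets of Gclc and of Sod3 lie close together, while those of Srxn1 run between -1.97 and -0.07.

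Promoter windows are shown for 3 of the members at least 2-fold apart, 1 lower and 2 higher in EST KO kidney. Each holds an AP-1 site, a motif of stress-responsive transcription factors. The window of Gstz1 holds an antioxidant core but no AP-1 site and is not shown. Srxn1 and Osgin1 are both known NRF2 targets, and their ratios had opposite signs. Each sequence is a RefSeq window (GRCm38.p6) of 250 bases before to 50 bases after the gene's start, written 5′ to 3′ on the gene's strand. Capitals mark matches on either strand to the antioxidant response element core TGACNNNGC, its form TGAGNNNGC, or the AP-1 site TGANTCA. The windows lie at chr2:152105274-152105573 (plus strand) for Srxn1, chr8:119436897-119437196 (plus strand) for Osgin1 and chr13:75839635-75839934 (plus strand) for Glrx.
Srxn1: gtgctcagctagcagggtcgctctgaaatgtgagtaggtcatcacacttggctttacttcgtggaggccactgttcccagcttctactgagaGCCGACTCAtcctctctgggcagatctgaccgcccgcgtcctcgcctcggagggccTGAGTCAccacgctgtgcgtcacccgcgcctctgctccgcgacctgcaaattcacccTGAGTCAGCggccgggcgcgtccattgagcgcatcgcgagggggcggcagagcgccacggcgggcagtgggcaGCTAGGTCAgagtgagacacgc
Osgin1: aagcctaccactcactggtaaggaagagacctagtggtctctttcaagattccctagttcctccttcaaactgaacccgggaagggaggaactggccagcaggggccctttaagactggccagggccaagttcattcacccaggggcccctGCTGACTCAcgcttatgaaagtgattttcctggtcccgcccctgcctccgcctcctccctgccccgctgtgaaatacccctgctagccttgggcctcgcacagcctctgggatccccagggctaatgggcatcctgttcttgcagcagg
Glrx: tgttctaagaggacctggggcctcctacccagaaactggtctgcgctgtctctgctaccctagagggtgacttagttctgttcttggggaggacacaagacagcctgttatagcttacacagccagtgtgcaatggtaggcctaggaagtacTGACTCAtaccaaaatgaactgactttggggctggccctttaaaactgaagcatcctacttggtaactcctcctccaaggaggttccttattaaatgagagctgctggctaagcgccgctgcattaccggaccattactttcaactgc
In Srxn1 an AP-1 site lies inside an antioxidant core, TGAGTCAGC, that begins 45 bases before the start. Osgin1 holds the same kind of overlap, GCTGACTCA, beginning 99 bases before its start and read on the opposite strand. Glrx holds a single AP-1 site and neither form of the core. Gstz1, not shown, holds the G form of the core and no AP-1 site. Gclc, Gsta4 and Sod3, also at least 2-fold apart, had no window available and were not searched. Of the 47 measured members 40 had a window. Either form of the core occurred in 14 of these 40 genes (35.0%), in 36.0% of 6059 measured genes with a window, and in 30.8% of all 27025 genes with a window. The AP-1 site occurred in 5 of the 40 (12.5%), against 6.14% of the 6059 genes and 8.97% of the 27025 genes. A match is only a match of letters.

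The enzymes of glutathione synthesis and recycling were split. Gclc is the catalytic subunit of glutamate-cysteine ligase, which carries out the rate-limiting step. Its brighter probe set read 5247 in EST KO kidney and 11612 in WT kidney, 2.21-fold lower in EST KO kidney, and its other probe set read 2757 in EST KO kidney and 6662 in WT kidney. Both probe sets of Gclc were thus lower in EST KO kidney by more than 2-fold. Gclm, the regulatory subunit of the same enzyme, read 6672 in EST KO kidney and 7081 in WT kidney, a log2 ratio of -0.09. Its dimmer probe set went the other way, with 1936 in EST KO kidney and 904.4 in WT kidney, so that the mean of both gives 0.51 and Gclm has no settled direction.

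Gss, glutathione synthetase, which adds the final glycine, was 1.70-fold higher in EST KO kidney, at 4961 against 2913 in WT kidney. That value rests on a probe set that can read several genes, and its other probe set gave a log2 ratio of 0.50. Gsr, glutathione reductase, was 1.499-fold lower in EST KO kidney, at 2875 against 4310 in WT kidney, with its other probe set at -0.68. The first and the last step of glutathione synthesis therefore had ratios of opposite sign in these pools.

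Among the glutathione S-transferases, 15 of 21 genes were measured, 7 higher and 8 lower in EST KO kidney, beside 43.6% and 54.6% of all measured genes. The median log2 ratio of the S-transferases was -0.04 and changed sign (0.01 after centring on the median gene, 0.005 after quantile normalization). Gstz1, which is also maleylacetoacetate isomerase of tyrosine breakdown, read 2276 in EST KO kidney and 431.5 in WT kidney, and was at least 3.37-fold higher in EST KO kidney. Only 1 probe set reads Gstz1, and the WT value lay below background. In the other direction, Gsta4, which conjugates the lipid peroxidation product 4-hydroxynonenal, read 318.9 in EST KO kidney and 1306 in WT kidney and was at least 2.05-fold lower. After centring or quantile normalization the bound for Gsta4 was -0.99 on the log2 scale, just under 2-fold, and with background at the 75th percentile it was -2.003.

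Of the mu class, clustered on chromosome 3, Gstm1 was 1.62-fold higher in EST KO kidney (7206, against 4459 in WT kidney). All 4 Gstm1 probe sets lay between 0.59 and 0.79 on the log2 scale. Gstm5 was 1.53-fold higher (7643 in EST KO kidney and 4984 in WT kidney). The other mu class genes above background in EST KO and in WT kidney ran between a log2 ratio of -0.09 for Gstm3 and 0.41 for Gstm2. Copies of this class and of the alpha, pi and theta classes are close in sequence, so a probe set may read more than 1 of them.

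Gsto1, an omega class enzyme that reduces dehydroascorbate, was 1.504-fold lower in EST KO kidney at its brightest probe set (3821, against 5745 in WT kidney). Its other probe set gave only -0.12 on the log2 scale, and the mean of both was -0.35. Gstp1, the pi class enzyme, read 6454 in EST KO kidney and 7874 in WT kidney, a log2 ratio of -0.29. Gstt2 stood at 0.56, and Gstt1, Gstt3, Gsta2, Gstm7 and Gstk1 lay between -0.14 and 0.10 on the same scale. Gstm4 read 677.3 in EST KO kidney and 572.9, below background, in WT kidney, a log2 ratio of at least 0.003, and 0.24 with no floor. Gsta3, Gstcd, Gstm6, Gsto2, Gstp3 and Gstt4 were not above background in either pool.

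Of the glutathione peroxidases, 4 of 8 genes were measured, and none was 2-fold apart. Gpx1, the abundant cytosolic and mitochondrial selenoenzyme that reduces hydrogen peroxide, was 1.52-fold higher in EST KO kidney (21816, against 14345 in WT kidney). Gpx4, which reduces lipid hydroperoxides within membranes and so restrains ferroptosis, was 1.30-fold higher (11187 in EST KO kidney and 8586 in WT kidney). Gpx3, the plasma enzyme secreted by the proximal tubule, read 29538 in EST KO kidney and 33208 in WT kidney, a log2 ratio of -0.17, and Gpx6 stood at 0.06. Each of these differences is smaller than the 1.75-fold gap that separates 2 probe sets of a gene in 1 of 20 cases. Gpx2, Gpx5, Gpx7 and Gpx8 were not measured.

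Srxn1 encodes the enzyme that restores peroxiredoxins whose active-site cysteine has been over-oxidised. Its 4 probe sets read 4207, 4172, 3446 and 758.4 in EST KO kidney, against 16510, 10175, 9656 and 798.6 in WT kidney, in that order. The 3 bright ones were 3.92-, 2.44- and 2.80-fold lower in EST KO kidney, and the dim one, close to background, differed by a log2 ratio of -0.07. The log2 ratio of Srxn1 was -1.20 as the mean of its probe sets. It was -1.29 once probe sets with names ending in _x_at, _s_at or _a_at were left out. Only 0.12% of measured genes had a lower ratio than the brightest Srxn1 probe set.

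Of the peroxiredoxins, Prdx2, Prdx3 and Prdx4 were read by probe sets of a single gene, and the others were not analysed here. Prdx3, the mitochondrial member, was 1.32-fold higher in EST KO kidney (3707, against 2804 in WT kidney). Prdx4, of the endoplasmic reticulum, read 780.8 in EST KO kidney and 698.0 in WT kidney, a log2 ratio of 0.16, near background. Prdx2, a cytosolic member abundant in red blood cells, read 4428 in EST KO kidney and 4843 in WT kidney, a log2 ratio of -0.13. Of 6 red blood cell markers on the array 1 was measured, and their intensities summed to 1552 in EST KO kidney and 1813 in WT kidney.

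**Figure D3:**
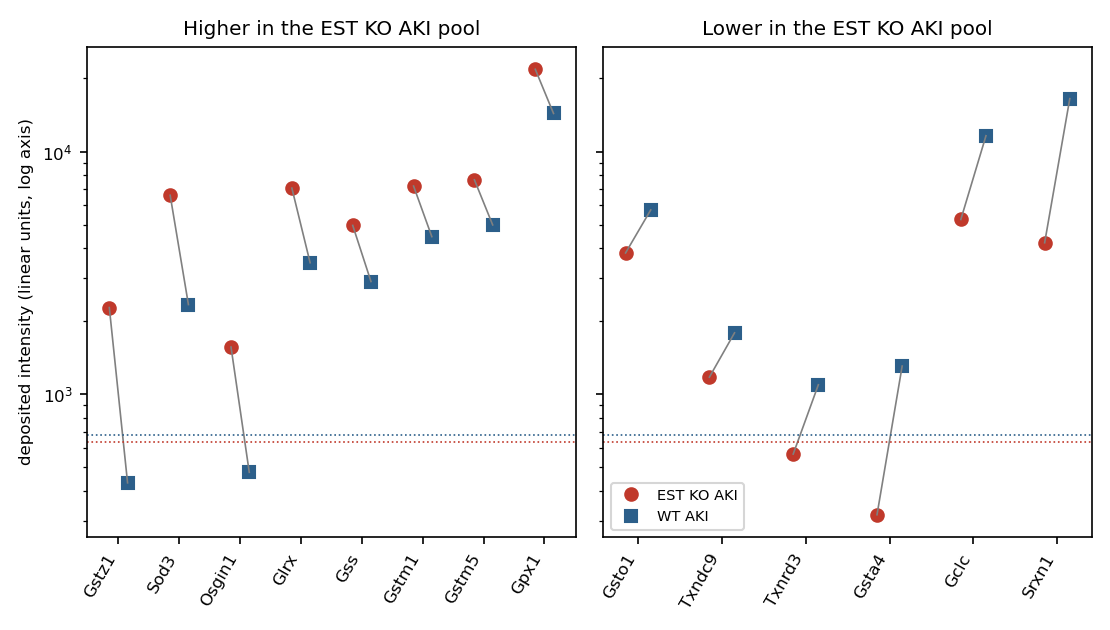
Deposited intensity (vertical axis, logarithmic) in the EST KO AKI pool (circles) and the WT AKI pool (squares) of the 14 members at least 1.5-fold apart, 8 higher and 6 lower in EST KO kidney, each at its brightest probe set. Dotted lines are the background of each pool (638.3 and 676.1); 1 of the pair lies below its line for Gstz1, Osgin1, Txnrd3 and Gsta4, and intensities of different genes cannot be set against each other.

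In the thioredoxin group 14 of 19 genes were measured, 6 higher and 8 lower in EST KO kidney, with a median log2 ratio of -0.15. Without probe sets whose names end in _x_at, _s_at or _a_at, 10 genes were measured, 5 on each side of 0, around a median of -0.002. With quantile normalization 4 were higher and 10 lower (median -0.17), and with a pseudocount 5 and 9 (-0.13). The mean of probe sets also gave 5 and 9 (-0.15). The split thus depends on the processing and on which probe sets are read. Among all measured genes 54.6% were lower, so no lean of this group is read from these counts. Glrx, the cytosolic glutaredoxin, uses glutathione to remove glutathione adducts from proteins. It read 7066 in EST KO kidney and 3481 in WT kidney, 2.03-fold higher, and its other probe set read 5377 in EST KO kidney and 3012 in WT kidney. Glrx came just under 2-fold with a pseudocount (log2 0.89), with quantile normalization (0.85) and as the mean of its probe sets (0.93).

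Thioredoxin and its reductase differed little. Txn1, the cytosolic thioredoxin, read 13868 in EST KO kidney and 16545 in WT kidney, a log2 ratio of -0.25. Txnrd1, its cytosolic reductase, read 9769 in EST KO kidney and 11271 in WT kidney, a log2 ratio of -0.21. Txn2, the mitochondrial thioredoxin, read 3492 in EST KO kidney and 3486 in WT kidney, and another of its 3 probe sets stood at -0.55. Txnip, which binds and inhibits thioredoxin, was 1.45-fold lower in EST KO kidney (5004, against 7270 in WT kidney), with its other probe set at -0.91.

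Txnrd3, a thioredoxin and glutathione reductase best known from testis, read 566.9 in EST KO kidney and 1094 in WT kidney, at least 1.71-fold lower in EST KO kidney at its brightest probe set. Its other 2 probe sets stood at -0.23 and -0.12, and the mean was -0.38. Txndc9, a thioredoxin-domain protein, was 1.52-fold lower (1176 in EST KO kidney and 1790 in WT kidney). That value rests on a probe set that can read several genes, and the other probe sets of Txndc9 lay below background in both pools. Txndc17, a cytosolic disulfide reductase, was 1.475-fold higher (4686 in EST KO kidney and 3177 in WT kidney), and its 3 probe sets above background lay between 0.56 and 0.62 on the log2 scale. Txndc5, of the endoplasmic reticulum, had opposed probe sets at 0.40 and -0.19. Txndc12, Txndc15, Txnl1, Txnl4a and Txnl4b lay between -0.21 and 0.15. Txnrd2, Txndc2, Txndc8, Txndc11 and Txndc16 were not measured.

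The superoxide dismutases and catalase were all higher in EST KO kidney, 4 of 4, beside 43.6% of all measured genes. Their median log2 ratio was 0.57. All 4 stayed higher under each of the 8 alternative settings, which reprocess the same arrays and so are no replication. Superoxide dismutases turn superoxide into hydrogen peroxide, which catalase splits into water and oxygen. Sod3, the secreted form bound to the cell surface and matrix, read 6602 in EST KO kidney and 2341 in WT kidney, 2.82-fold higher in EST KO kidney. Its other probe set gave 2403 in EST KO kidney and 701.5 in WT kidney, a log2 ratio of 1.78. Both probe sets of Sod3 therefore put it well past 2-fold.

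Cat, the peroxisomal catalase, was 1.49-fold higher in EST KO kidney (9679, against 6493 in WT kidney), and its other probe set stood at 0.94 on the log2 scale. Sod1, the copper-zinc enzyme of the cytosol, was 1.47-fold higher (10423 in EST KO kidney and 7092 in WT kidney). Sod2, the manganese enzyme of mitochondria, was 1.26-fold higher (5964 in EST KO kidney and 4751 in WT kidney). With quantile normalization the log2 ratio of Sod2 was only 0.11. At the probe sets read for them, the differences of Cat, Sod1 and Sod2 are each smaller than the 1.75-fold gap between probe sets given above. Ccs, the copper chaperone that loads Sod1 and no member by the rule, was 2.03-fold higher (1950 in EST KO kidney and 960.1 in WT kidney).

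Nqo1 and Osgin1 differed from each other. Nqo1, a quinone reductase and a standard NRF2 target, read 2092 in EST KO kidney and 2465 in WT kidney, a log2 ratio of -0.24. Osgin1, an oxidative stress-induced growth inhibitor, read 1565 in EST KO kidney and 476.7 in WT kidney, at least 2.31-fold higher in EST KO kidney. It rests on 1 probe set, and with a pseudocount its log2 ratio was 0.93.

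Other NRF2 targets were likewise divided in sign. Of 26 such genes on the array outside the members 19 were measured, 9 higher and 10 lower in EST KO kidney, beside 43.6% and 54.6% of all measured genes. Their median log2 ratio was -0.02 (between -0.13 and 0.09 under the alternatives). At 1.5-fold, 3 of the 19 were higher and 6 lower, beside 8.46% and 7.43% of all measured genes. Akr1b8, an aldo-keto reductase, was the only one at least 2-fold apart, 2.71-fold lower in EST KO kidney (2376, against 6447 in WT kidney). The following were chosen after their values were seen. Pgd, an NADPH-making enzyme of the pentose phosphate pathway, was 1.81-fold lower (6944 in EST KO kidney and 12585 in WT kidney), and Ugdh, which makes UDP-glucuronate, was 1.59-fold lower (5729 in EST KO kidney and 9106 in WT kidney). The Pgd value rests on a probe set that can read several genes, and its 4 probe sets above background in both pools were not opposed in sign. Hmox1, heme oxygenase, was 1.999-fold higher (9930 in EST KO kidney and 4967 in WT kidney), and Me1, the NADPH-making malic enzyme, was 1.86-fold higher (6599 in EST KO kidney and 3541 in WT kidney). Akr1a1 was 1.54-fold higher. Abcc4, Abcc1 and Blvrb, each below background in EST KO kidney, were at least 1.70-, 1.65- and 1.56-fold lower. Among genes that share this regulator, Srxn1, Gclc, Akr1b8, Pgd, Ugdh, Abcc1, Abcc4 and Blvrb were thus lower, and Osgin1, Hmox1, Me1 and Akr1a1 higher. The members were not sorted by whether NRF2 switches them on. These names are therefore examples and give no count of either side.

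Among 12 measured regulators of the pathway, 6 were higher and 6 lower, beside 43.6% and 54.6% of all measured genes, and none was 2-fold apart. Nfe2l2, which encodes NRF2 itself, read 3557 in EST KO kidney and 4032 in WT kidney, a log2 ratio of -0.18. Keap1 read 1221 in EST KO kidney and 1385 in WT kidney, also -0.18. Nfe2l1, a related factor, was 1.92-fold lower in EST KO kidney (953.7, against 1832 in WT kidney). These are transcript levels, and NRF2 is controlled mainly through the stability of its protein.

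For the lists that follow, the shares over all measured genes were 43.6% higher and 54.6% lower in EST KO kidney. At 2-fold these shares were 3.02% and 1.4%. Genes that feed and degrade glutathione, outside the members, numbered 17 measured of 25, with 11 higher, 5 lower and 1 without an order, and a median log2 ratio of 0.12. That median varied with the treatment of dim values, at 0.33 with the 75th percentile background, 0.38 with no floor and 0.23 with a pseudocount. It was 0.28 for genes above background in EST KO and in WT kidney. Without probe sets ending in _x_at, _s_at or _a_at it was 0.48. At least 2-fold higher in EST KO kidney were Nat8, which acetylates cysteine conjugates in the last step to mercapturic acids (7798 in EST KO kidney and 2922 in WT kidney, 2.67-fold), Lap3, a peptidase (2.52-fold), and Cth, which makes cysteine from cystathionine (2450 in EST KO kidney and 1151 in WT kidney, 2.13-fold). Cdo1, which oxidises cysteine to its sulfinic acid, was 3.57-fold lower (2565 in EST KO kidney and 9153 in WT kidney). Genes of NADPH supply had 10 of 15 measured genes higher, 5 lower and none 2-fold apart, with a median of 0.17 (0.093 with a pseudocount). Other thiol and disulfide enzymes had 18 of 27 higher and 8 lower, with a median of 0.18. That median was 0.10 without probe sets ending in _x_at, _s_at or _a_at. Besides Ccs, only Selenow, a selenoprotein, was 2-fold apart, 3.02-fold lower (642.2 in EST KO kidney, barely above background, and 1939 in WT kidney). The Selenow value rests on a probe set that can read several genes, and none of its other probe sets lay above background in both pools. Of the measured genes, Mafg, Sqstm1, Pgd, Taldo1, Tkt, Me1 and Park7 stand in more than 1 of these lists.

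Cell type markers moved between the pools as well. For comparison, 43.6% of all measured genes were higher in EST KO kidney and 54.6% lower, and 3.02% were at least 2-fold higher. Of 25 proximal tubule markers 24 were measured and 23 were higher in EST KO kidney, 12 at least 2-fold, with a median log2 ratio of 1.13, and their intensities summed to 277982 in EST KO kidney and 146164 in WT kidney. Of 19 tubular injury markers 17 were measured and 13 were lower, with a median of -0.61, and a sum of 103867 in EST KO kidney and 159862 in WT kidney. Of 15 myeloid markers 8 were measured and 7 were lower (median -0.43, sums 11827 in EST KO kidney and 18820 in WT kidney). Of 13 endothelial markers 10 were measured and all 10 were lower (median -0.44, sums 10594 in EST KO kidney and 14483 in WT kidney). Of 11 fibroblast markers 7 were measured and 6 were lower (median -0.50, sums 11347 in EST KO kidney and 15676 in WT kidney). The fibroblast median was -0.87 without probe sets ending in _x_at, _s_at or _a_at. Loop, distal and collecting duct markers, 15 of 17 measured, had a median of 0.09 (0.26 with no floor) and sums of 89394 in EST KO kidney and 74617 in WT kidney. The part of these shifts in the antioxidant genes was not tested. In pooled tissue, fewer cells of a type and less RNA per cell cannot be told apart.

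**Figure D4:**
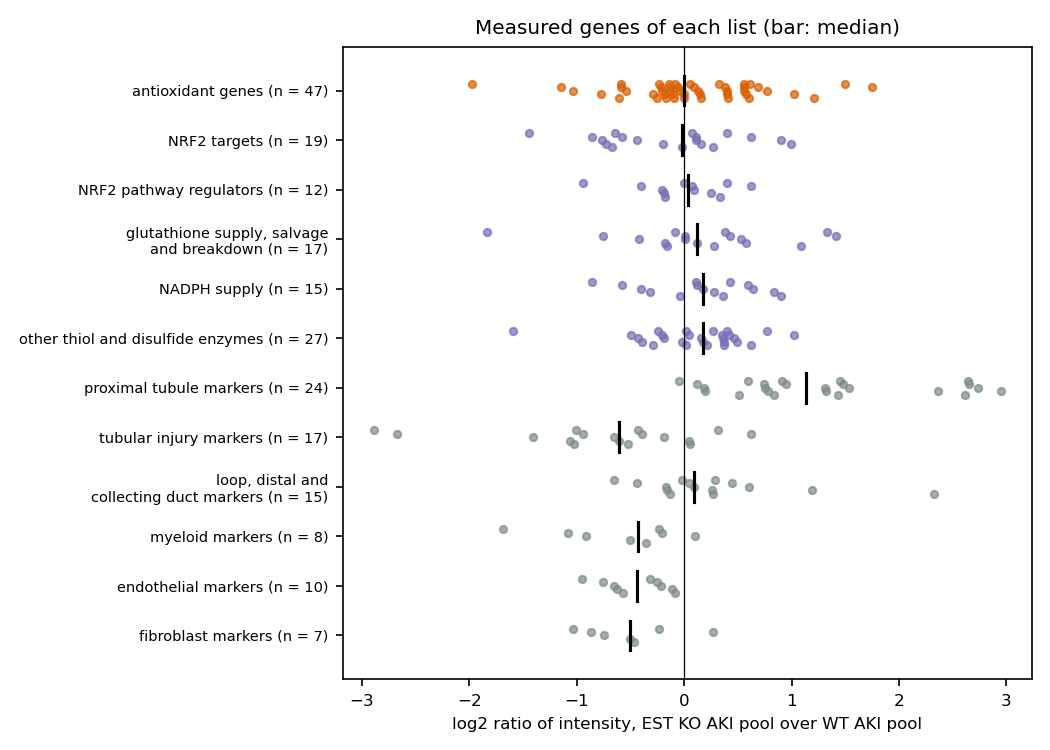
Log2 ratio of intensity (EST KO AKI pool over WT AKI pool, horizontal axis) of every measured gene of the antioxidant members (orange), of related pathway lists (violet) and of cell type and injury markers (grey), with black bars at the medians. The 47 antioxidant genes spread to both sides of 0 around a median of 0.003, whereas proximal tubule markers centre on 1.13 and tubular injury markers on -0.61.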

How the data were processed

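Kidney tissue was pooled by genotype, 1 array per pool. Trizol-extracted total RNA was turned into biotinylated cRNA by the Affymetrix protocol, per the labels' protocols. The deposited values are an intensity for each of 45101 probe sets on a linear scale. The summarising software is not given in the sources used here. From the values, each array had been scaled to a mean of 500.0 after the lowest and highest 2% were dropped. Array medians (242.4 in the EST KO pool and 261.8 in the WT pool) lay within 10% of each other, so no scaling was added. The number of arrays limits the precision.

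Gene symbols came from the platform annotation: 34958 had 1 symbol, 932 several and 9211 none. Symbols were updated by Entrez ID against a RefSeq table of GRCm38.p6, which matched 34754 probe sets. Each gene was read at its probe set with the highest mean, values below background were set to background, and log2 ratios were taken as EST KO minus WT with Python 3.11.15, numpy 2.4.6 and pandas 2.3.3. The steps were tested on simulated data with changes planted only in bright probe sets, so calls and bounds near background were not checked. No test between genotypes was possible. Counts and medians stand beside those of all measured genes. Values are printed for members at least 1.5-fold apart, for members with opposed probe sets and to complete small groups, and for genes of the pathway lists at least 2-fold apart. Nfe2l2, Keap1, Nfe2l1, Hmox1, Me1, Pgd, Ugdh, Akr1a1, Abcc1, Abcc4, Blvrb and members closer than 1.5-fold were added after their values were seen. The promoter motifs were chosen then too. The members and lists were chosen with earlier results of these data known. The alternatives were a 75th percentile background, no floor, a pseudocount, centring, quantile normalization and the mean of probe sets. The others left out probe sets ending in _x_at, _s_at or _a_at, or kept only genes above background in both pools.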

Additional observations from a re-analysis of the deposited data

How the results depend on the processing

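The count of members at least 2-fold higher in the EST KO pool (4) was 2 with a pseudocount at the background level. It was also 2 when genes had to lie above background in both pools, which leaves out Gstz1 and Osgin1 by construction. It was 3 with quantile normalization, with the mean of probe sets and without probe sets ending in _x_at, _s_at or _a_at. The count at least 2-fold lower (3) was 2 after centring and after quantile normalization. For genes above background in both pools it was also 2, which leaves out Gsta4 by construction, and under the other alternatives it was 3. The members' median log2 ratio of 0.003 was 0.048 after centring on the median gene. It was 0.097 without probe sets ending in _x_at, _s_at or _a_at, where 37 members were measured. With background at the 75th percentile, genes over the whole array at least 2-fold higher and lower numbered 319 and 204, with no floor 331 and 197, and with a pseudocount 124 and 43, against 226 and 105. Of 56 recomputed medians of the role groups, 6 changed sign, all for the S-transferases, the peroxiredoxin group or the pair of Nqo1 and Osgin1; of 103 recomputed medians of the pathway and marker lists, 4 did, for NRF2 targets, NRF2 regulators and hepatocyte markers. No member at least 2-fold apart changed sign. No paired analysis was possible because each genotype has 1 array. Values near the background of 638.3 and 676.1 have little precision, which limits Gstz1, Osgin1, Gstm4, Gsta4 and Txnrd3 to bounds.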
